A study of Saccharomyces cerevisiae with 12 samples.

Results

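Heat shock protein genes were followed across 4 growth-limiting carbon sources in the yeast Saccharomyces cerevisiae. The genes were HSP12, HSP26, HSP30, HSP42, HSP78, HSP82, HSP104, SSA1, SSA3 and SSA4, chosen by name through the gene annotation of the array platform, and every probe set of each gene was kept. They were represented by 13 of the 9275 probe sets that are not controls, and are 10 of 5656 genes with a probe set of their own. For each of the 10 genes, 1 probe set was annotated to that gene alone, and the other 3 were shared, 2 between SSA1 and SSA2 and 1 between HSP82 and its near-identical partner HSC82. All 10 single-gene probe sets passed the filter on low signals and were tested, among 7176 in all.

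The heat shock proteins are chaperones and membrane or stress proteins that keep other proteins folded or rescue them from aggregates. Small heat shock proteins hold unfolded clients, Hsp70 proteins bind and release short hydrophobic stretches in an ATP-driven cycle, Hsp90 matures kinases and receptors, and the Hsp104 ring pulls polypeptides out of aggregates together with Hsp70. In yeast their genes are driven by the heat shock factor Hsf1 and, for many of them, by the general stress factors Msn2 and Msn4, which protein kinase A restrains when sugar is plentiful.

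The cultures were aerobic chemostats, in which the pump sets the growth rate and a single nutrient limits growth, held at 30 °C and pH 5 with a dilution rate of 0.1 per hour. Glucose, maltose, ethanol or acetate limited growth, with 3 numbered samples each and 1 array per sample. The records of the maltose, ethanol and acetate samples name the haploid laboratory strain CEN.PK113-7D MATa, a feed of 256 mmol of carbon per litre and dissolved oxygen, relative to air saturation, of 60 to 75%. The glucose samples come from older records with a protocol text of their own, which states dissolved oxygen above 80%, so record and carbon source cannot be told apart for glucose. No stress, heat shock, mutation or drug was part of any group. The study asked how far the 4 carbon sources set transcript levels in central carbon metabolism, and the heat shock genes were measured alongside on the same arrays.

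Values are linear probe set signals on Affymetrix Yeast Genome S98 arrays, scaled to a common 2% trimmed mean. They have no read depth, so the number of arrays limits the precision, and levels of different probe sets are not compared. The median signal lay between 41.7 and 48.4 on 11 arrays and was 22.8 on maltose array 2. The brightest probe set read 3733 and 3765 on glucose arrays 1 and 3 and between 7332 and 14807 on the other 10. A 3′/5′ ratio, a measure of RNA and label integrity, was available for actin and for YER148W. The actin ratio was high on ethanol array 2 (9.27), ethanol array 3 (14.0), acetate array 2 (10.2) and acetate array 3 (13.1). On all other arrays it was at most 3.31. The YER148W ratio was at least 7.33 on these high arrays, but also reached 5.88 on maltose array 2 and 4.87 on acetate array 1. The 3′/5′ covariate used below was the mean of the log2 ratios of both transcripts. It lay between 3.11 and 3.57 on the high arrays and between 1.06 and 2.06 on the rest. The array descriptions carry a code letter of unstated meaning: glucose array 2 has V, maltose arrays 1 and 2 have M, and the other 9 have P. Fewer cells expressing a gene and less of its RNA per cell cannot be told apart in these whole-culture samples.

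Most heat shock genes had lower signals on the 2-carbon substrates ethanol and acetate than on the sugars glucose and maltose. For the contrast of the average of the first pair with the average of the second, limma called 8 of the 10 genes at a Benjamini-Hochberg adjusted p under 0.05, where 17.1% of all tested probe sets were called. Of these genes 7 were lower on the C2 compounds, against 5.69% of all probe sets called lower: HSP26, HSP42, HSP30, HSP104, HSP78, SSA3 and SSA4. SSA1 was the gene called higher, against 11.4% of all, and HSP12 and HSP82 did not pass. The median log2 difference was -0.86 over the 10 genes and 0.12 over all tested probe sets. The signals of the C2 arrays and of the sugar arrays did not overlap for HSP104, HSP78 and SSA4, which is 3 of 10 genes, against 7.34% of all probe sets. The 3′/5′ ratio moved with this contrast: with it as a covariate 3 genes were called, HSP42, HSP78 and SSA4, against 2.05% of all, and the same 3 genes were called where just the first array of ethanol and that of acetate were kept, against 2.4% of all.

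**Figure D1:**
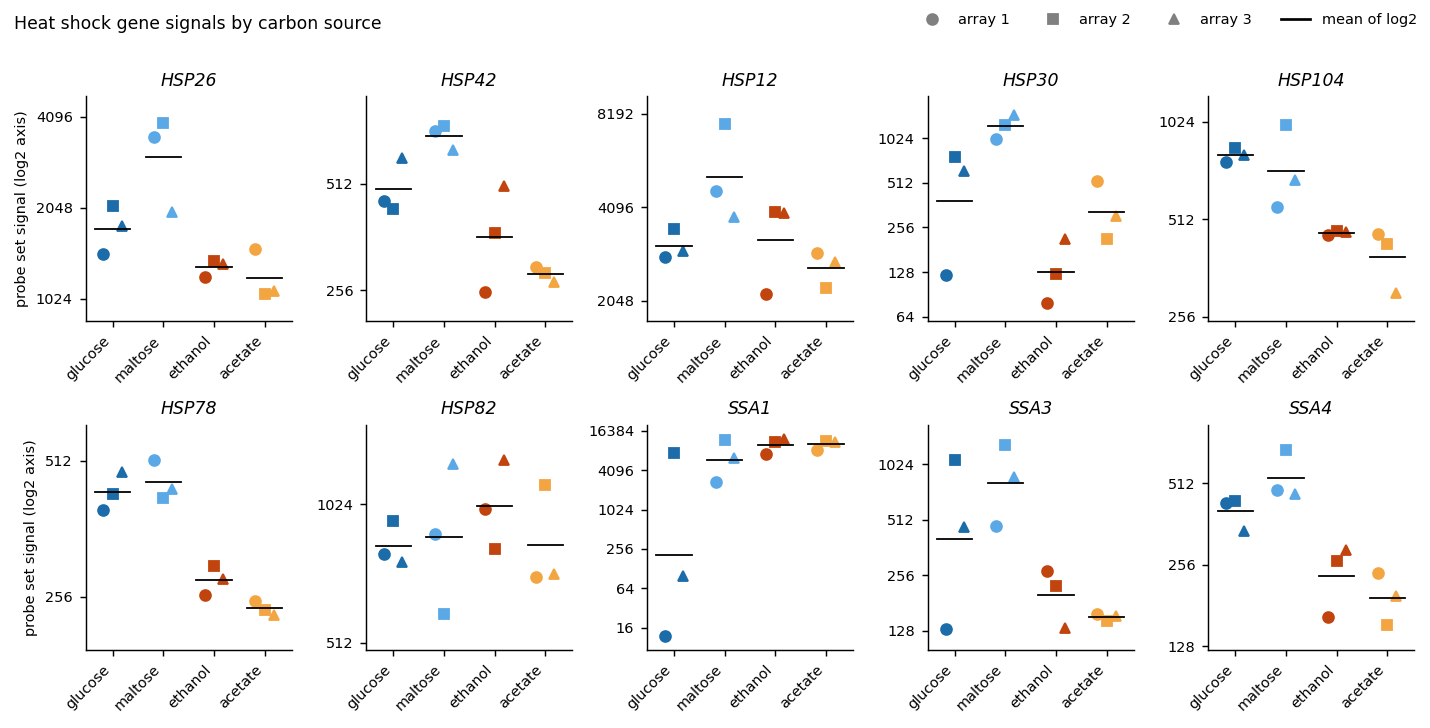
Signal of the single-gene probe set of each heat shock gene on each array, on a log2 axis, by carbon source; symbols give the array number, bars the mean of the log2 signals, and signals under the floor of 12 are drawn at 12. The C2 arrays of HSP104, HSP78 and SSA4 all sit below the sugar arrays, while SSA1 runs from 0 to 7378 on the 3 glucose arrays alone.

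Among the small heat shock genes, HSP26 (YBR072W) and HSP42 (YDR171W) encode the main sHSPs of yeast, which form large oligomers around unfolding proteins. HSP26 had signals of 1447, 2081 and 1781 on glucose arrays 1, 2 and 3, of 3521, 3896 and 1987 on maltose, of 1211, 1372 and 1339 on ethanol and of 1503, 1059.9 and 1087 on acetate. Maltose arrays 1 and 2 stood above all the others, and the glucose arrays overlapped the acetate arrays. The means were 1769.7 ± 317 (SD, n = 3) on glucose, 3135 ± 1011 on maltose, 1307 ± 84.7 on ethanol and 1217 ± 248 on acetate. HSP26 was 1.83-fold lower on the C2 compounds, a log2 difference of -0.87 ± 0.17 (SE) with an adjusted p of 0.00314 by limma. The call held with each array left out in turn and in 18 of the 22 alternatives, but not among the 9 arrays of code letter P, where the difference was -0.51 and the adjusted p 0.0625.

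HSP42 read 457.5, 433.7 and 607 on the glucose arrays, 722, 747 and 638 on maltose, 254, 372 and 504 on ethanol and 298, 287 and 270.4 on acetate. The 3 maltose arrays were the highest of the 12, the 3 acetate arrays lay close together, and ethanol array 3 reached into the range of glucose. HSP42 was 1.83-fold lower on the C2 compounds (log2 -0.87 ± 0.16 SE, limma adjusted p 0.00191). It was called in all 22 alternatives run for this contrast, with differences between -1.19 and -0.74.

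HSP12 (YFL014W) encodes a small, mostly unfolded protein that lines membranes and is a standard marker of Msn2 and Msn4 activity. Its signals were 2827, 3475 and 2963.5 on glucose, 4609, 7595 and 3796 on maltose, 2152, 3957.5 and 3911 on ethanol and 2912, 2247 and 2737 on acetate. Ethanol array 1 was the lowest of the 12, and ethanol arrays 2 and 3 were above every glucose array and above maltose array 3, so the C2 and sugar groups overlapped. The C2 difference of -0.45 ± 0.20 (95% interval -0.86 to -0.04) did not pass after adjustment by limma (adjusted p 0.126). It passed without maltose array 3, at -0.56 with an adjusted p of 0.0467, and under quantile normalisation, at -0.67 with an adjusted p of 0.006. Between ethanol and glucose HSP12 differed by 0.06 ± 0.28 on the log2 scale (adjusted p 0.94), and this turned to -0.58 under quantile normalisation.

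HSP30 (YCR021C) encodes a plasma membrane protein that dampens the proton pump Pma1 and is known to be induced by heat, ethanol exposure and weak acids. Its signals were 122, 761 and 617.0 on glucose, 1018, 1263 and 1478 on maltose, 79.1, 124 and 213 on ethanol and 525, 214 and 305 on acetate. The maltose arrays were the highest 3 and ethanol array 1 was the lowest, while glucose array 1 fell within the ethanol range. The means were 499.9 ± 335 (SD, n = 3) on glucose, 1253 ± 230.0 on maltose, 139 ± 68.3 on ethanol and 348 ± 159.9 on acetate. HSP30 was 3.39-fold lower on the C2 compounds (log2 -1.76 ± 0.38 SE, limma adjusted p 0.0052). The call was kept in 17 of 22 alternatives, and among the arrays of code letter P the difference was -1.64 with an adjusted p of 0.0837. Ethanol and acetate arrays did not overlap for HSP30, with ethanol lower by 1.35 ± 0.53 (95% interval of the difference -2.48 to -0.22), but this pair did not pass after adjustment (adjusted p 1).

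HSP104 (YLL026W) encodes the disaggregase of the cytosol and nucleus, and HSP78 (YDR258C) its mitochondrial counterpart. HSP104 read 767, 851 and 810.5 on glucose, 557, 1003 and 674.5 on maltose, 456, 472 and 468 on ethanol and 461, 428 and 303 on acetate. Every sugar array was above every C2 array, and maltose array 1 was the lowest of the sugar arrays. The means were 809.5 ± 42.5 (SD, n = 3) on glucose, 745 ± 231 on maltose, 465.5 ± 8.15 on ethanol and 397 ± 83.4 on acetate. The C2 difference was -0.84 ± 0.15 (SE), 1.79-fold, with a limma adjusted p of 0.00184. It was kept in 20 of the 22 alternatives and lost with the 3′/5′ covariate (-0.82, adjusted p 0.122) and with the first ethanol and acetate arrays alone (-0.74, adjusted p 0.278), both with a similar size.

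HSP78 read 398, 432 and 483 on glucose, 514, 424 and 444 on maltose, 258, 299 and 279.9 on ethanol and 251, 239.6 and 234 on acetate. Glucose and maltose were interleaved, and the 3 acetate arrays were the lowest 3 of the 12. The means were 438 ± 42.4 (SD, n = 3), 461 ± 47.2, 279 ± 20.6 and 241 ± 8.66 in the same order. The C2 difference was -0.79 ± 0.12 (SE), 1.73-fold, with a limma adjusted p of 0.000402, and it stayed between -0.82 and -0.75 and was called in all 22 alternatives.

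The inducible Hsp70 genes SSA3 (YBL075C) and SSA4 (YER103W) encode cytosolic Hsp70 forms that are scarce in unstressed glucose batch cultures. SSA4 read 434, 442 and 341 on glucose, 485.5, 681 and 467 on maltose, 163.5, 265 and 289 on ethanol and 239, 154 and 197 on acetate. No C2 array reached the lowest sugar array. The means were 406 ± 55.8 (SD, n = 3) on glucose, 545 ± 118 on maltose, 239 ± 66.6 on ethanol and 196 ± 42.5 on acetate. SSA4 was 2.20-fold lower on the C2 compounds (log2 -1.13 ± 0.17 SE, limma adjusted p 0.000448), and it was called in all 22 alternatives, between -1.41 and -1.00.

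SSA3 read 129.8, 1083 and 466 on glucose, 474.5, 1305 and 877 on maltose, 270.0, 224 and 132 on ethanol and 158, 145 and 154 on acetate. Glucose array 1 was the lowest of the 12, 8.34-fold below glucose array 2, while the acetate arrays lay within 1.09-fold of each other. SSA3 was 3.29-fold lower on the C2 compounds (log2 -1.72 ± 0.38 SE, limma adjusted p 0.00683). This call was kept in 17 of 22 alternatives; it was lost with a floor of 50 (adjusted p 0.0649), with no filter (0.0647), with the 3′/5′ covariate (0.205), with the first ethanol and acetate arrays alone (0.615) and among the arrays of code letter P (0.0506), with differences between -1.79 and -1.41. Glucose array 1 decided the comparisons with glucose: without it SSA3 was called lower on ethanol (-1.83, adjusted p 0.0299) and on acetate (-2.22, adjusted p 0.0057), where all arrays gave -1.01 (adjusted p 0.381) and -1.41 (adjusted p 0.144). HSP30 was low on the same array, and without it HSP30 was called lower on ethanol than on glucose (-2.42, adjusted p 0.0022), from -1.59 (adjusted p 0.137) with it.

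SSA1 (YAL005C) encodes a main cytosolic Hsp70, present in growing cells and raised further by heat, and its transcript is nearly identical to that of the constitutive SSA2. Its own probe set, of a class whose usual probe selection rules were relaxed, was listed at 0 on glucose array 1 and read 7378 and 98.1 on glucose arrays 2 and 3. It read 2717, 11774 and 6341.5 on maltose, 7324, 10973 and 12467 on ethanol and 8412.5, 11319 and 11181.5 on acetate. Glucose arrays 1 and 3 stood apart from the other 10, and they are also the arrays whose brightest probe set read 3733 and 3765. SSA1 was called higher on the C2 compounds (log2 3.20 ± 1.00 SE, limma adjusted p 0.0391), a size that depends on the floor of 12 put under the value listed at 0. Without glucose arrays 1 and 3 the difference was 0.62 with an adjusted p of 0.345, and the call held in 7 of 22 alternatives. It was lost, at adjusted p between 0.0557 and 0.0904, without any single one of glucose arrays 1 and 3, the maltose arrays, ethanol arrays 2 and 3, or acetate arrays 2 and 3, and without glucose array 1 the difference fell to 2.18.

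The 2 probe sets shared by SSA1 and SSA2 moved in opposite directions. The first, of a class with fewer probes than usual, read 1338, 9356 and 1813 on glucose, 4579, 14807 and 7332 on maltose, 9191, 13866 and 14005 on ethanol and 10099, 13382 and 11151 on acetate, and so had the same 2 low glucose arrays as the SSA1 set. It was 1.32 ± 0.39 higher on the C2 compounds on the log2 scale (limma adjusted p 0.0301), and 0.45 without glucose arrays 1 and 3 (adjusted p 0.438). Leaving out glucose array 1 or 3, maltose array 1, ethanol array 2 or 3, or acetate array 2 or 3 alone also ended its call. So did quantile normalisation (0.98, limma adjusted p 0.0877), a floor of 50 (adjusted p 0.156), no filter (adjusted p 0.142) and the 3′/5′ covariate (0.50, adjusted p 0.678). With just the first ethanol and acetate arrays kept, the set was not called either (1.02). The second read 1334, 1400.3 and 1356 on glucose, 1136, 1249 and 1043 on maltose, 939, 1156 and 844 on ethanol and 954, 839.5 and 558 on acetate, and showed no such gap within glucose. It was lower on the C2 compounds by 0.53 ± 0.14 (limma adjusted p 0.0192). This call was lost without glucose arrays 1 and 3 (-0.55, adjusted p 0.102), with the 3′/5′ covariate (-0.34, adjusted p 0.459), among the arrays of code letter P (-0.46, adjusted p 0.147), without ethanol array 3 (adjusted p 0.056) and without acetate array 3 (adjusted p 0.0582). SSA2, on its own probe set, differed by -0.19 ± 0.19 (limma adjusted p 0.503). The probe sets share near-identical sequence with SSA2, and the direction for SSA1 is uncertain in these data.

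HSP82 (YPL240C) encodes the stress-inducible Hsp90. Its signals were 799, 941 and 767 on glucose, 884.5, 590.4 and 1257 on maltose, 999.5, 817 and 1278 on ethanol and 710.0, 1131 and 723 on acetate. All 4 sources overlapped, with the lowest array in maltose and the highest in ethanol. The C2 difference was 0.11 ± 0.19 (limma adjusted p 0.714), with a 95% interval from -0.28 to 0.51. For the signal of this probe set, and in the fit without the 3′/5′ covariate, that interval leaves out decreases of the size measured for HSP104 and HSP78. The set is of the same class, with fewer probes than usual, as the first set shared by SSA1 and SSA2. How far transcripts of the near-identical HSC82 add to its signal was not tested.

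The probe set shared by HSP82 and HSC82 read 1252, 1558 and 1166 on glucose, 3543, 3104 and 1992.5 on maltose, 1516, 1735 and 2459 on ethanol and 1856, 1898 and 1912 on acetate. All maltose arrays exceeded all glucose arrays, by 1.09 ± 0.23 on the log2 scale, which did not pass after adjustment (limma adjusted p 0.0981). Its C2 difference was -0.03 ± 0.16 (adjusted p 0.917), and that of HSC82, the constitutive Hsp90 gene, on its own probe set was 0.15 ± 0.16 (adjusted p 0.546). With the 3′/5′ covariate the shared set was at -0.35 ± 0.25 (limma adjusted p 0.486).

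**Figure D2:**
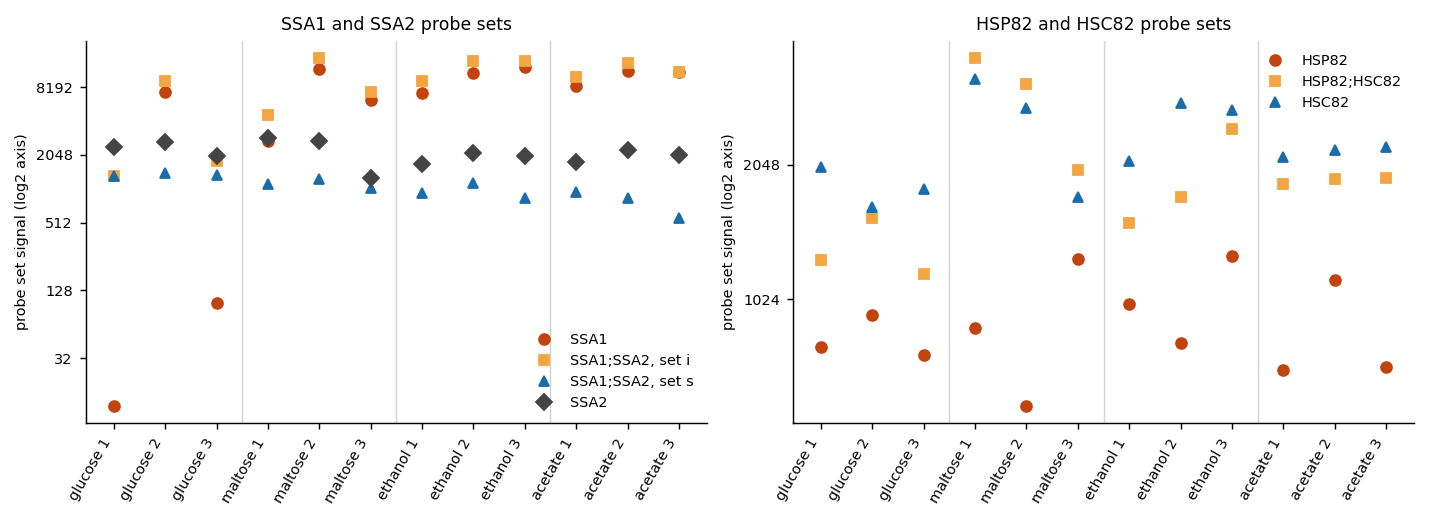
Signals of the probe sets that measure SSA1 and SSA2, and of those that measure HSP82 and HSC82, on each of the 12 arrays, on a log2 axis. The SSA1 set and the first shared set drop on glucose arrays 1 and 3, and the second shared set stays between 558 and 1400.3.

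Among the pairs of single sources, more heat shock genes passed in comparisons with maltose than in those with glucose, a difference that was not itself tested. On acetate against maltose 8 of the 10 genes were called, all lower on acetate, against 11.2% of all probe sets and 3.34% called lower: HSP26, HSP42, HSP12, HSP30, HSP104, HSP78, SSA3 and SSA4. On ethanol against maltose 6 were called, all lower on ethanol, against 6.19% of all and 1.95% lower: HSP26, HSP42, HSP30, HSP78, SSA3 and SSA4. The median log2 differences of the 10 genes were -1.13 and -0.84, while those of all probe sets were 0.23 and 0.21. These 2 medians over all probe sets fell to 0.05 under quantile normalisation, with the heat shock medians then at -1.01 and -0.80. HSP30 showed the largest of these changes, 9.69-fold lower on ethanol than on maltose (log2 -3.28 ± 0.53 SE, limma adjusted p 0.00147).

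HSP26 was lower by 1.33 ± 0.24 on acetate (limma adjusted p 0.00273) and by 1.21 ± 0.24 on ethanol (adjusted p 0.00834) than on maltose, and SSA4 by 1.47 ± 0.25 (adjusted p 0.00132) and 1.21 ± 0.25 (adjusted p 0.00892). HSP42 was lower by 1.30 ± 0.22 on acetate (adjusted p 0.00181) and by 0.95 ± 0.22 on ethanol (adjusted p 0.0209). HSP78 was lower by 0.93 ± 0.17 (adjusted p 0.00261) and by 0.72 ± 0.17 (adjusted p 0.0203). HSP104 was called on acetate only, at -0.89 ± 0.22 (adjusted p 0.0174) against -0.63 ± 0.22 (adjusted p 0.0909) on ethanol, and a difference between acetate and ethanol was not called for it.

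Maltose array 2 was the highest of the 12 arrays for 6 genes, HSP26, HSP42, HSP12, HSP104, SSA3 and SSA4, and the lowest for HSP82. The share of all probe sets highest on this array was not computed. Maltose arrays 1 and 2 had 231 and 260 probe sets with signals above 2000, and the other arrays at most 202. Without it 4 heat shock genes were called on acetate against maltose, from 8 with it, while the share of all probe sets called went from 11.2% to 6.47%: HSP12 (-0.68, adjusted p 0.136), HSP30 (-1.92, adjusted p 0.103), HSP104 (-0.65, adjusted p 0.0662) and SSA3 (-2.08, adjusted p 0.0734) no longer passed. Without acetate array 3 the count was also 4 (3.48% of all probe sets), and without ethanol array 2 it was 3 for ethanol against maltose (2.23% of all). Only maltose array 3 carries the code letter P, and within that letter neither maltose comparison had a called heat shock gene, where 2.72% and 2.41% of all probe sets were called on acetate and on ethanol, with differences of -0.73 and -0.61 for HSP26 and of -1.27 and -1.01 for SSA4 on acetate and on ethanol.

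On acetate against glucose 4 genes were called, against 5.5% of all probe sets: HSP104 (-1.05 ± 0.22, limma adjusted p 0.01), HSP78 (-0.85 ± 0.17, adjusted p 0.00806) and SSA4 (-1.06 ± 0.25, adjusted p 0.0202) were lower, against 2.03% of all called lower, and SSA1 was higher (5.63 ± 1.42, adjusted p 0.0295), against 3.47% of all called higher, with the limits given for its probe set. On ethanol against glucose SSA1 alone was called (5.61 ± 1.42, adjusted p 0.048), against 2.55% of all and 1.66% called higher; HSP78 (-0.65 ± 0.17, adjusted p 0.0557) and HSP104 (-0.80 ± 0.22, adjusted p 0.067) lay just outside. Leaving out maltose array 2 brought both of these under the threshold (HSP78 adjusted p 0.0329, HSP104 adjusted p 0.0282), and leaving out glucose array 1, glucose array 2, acetate array 2 or acetate array 3 took SSA4 on acetate over it, at adjusted p between 0.0646 and 0.119. Without acetate array 3, 1 gene was called on acetate against glucose, with 1.7% of all probe sets. The call of SSA1 on ethanol against glucose was kept in 5 of 22 alternatives. Under quantile normalisation HSP104, and with a floor of 50, with no filter or without maltose array 3 HSP78, was called lower in its place.

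No gene was called between the 2 C2 compounds or between the 2 sugars by limma. For ethanol against acetate 0.0279% of all probe sets were called, and HSP30 was the 1 heat shock gene of 10 with an unadjusted p under 0.05, as were 308 of the 7176 probe sets. For maltose against glucose 0.209% were called, and 5 of the 10 heat shock genes had an unadjusted p under 0.05, as did 831 of the 7176 probe sets. The median of the 10 genes was 0.62, against -0.20 for all probe sets. HSP26 was 0.78 ± 0.24 higher on maltose (adjusted p 0.263), and this passed without maltose array 3 (1.08, adjusted p 0.0277). SSA1 was 4.84 ± 1.42 higher on maltose (adjusted p 0.244), which passed without glucose array 2 (7.42) and became -0.33 without glucose arrays 1 and 3.

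The groups of single sources did not overlap for 8 of the 10 genes on acetate against maltose, where 28% of all probe sets did not, and for 7 on ethanol against maltose (23.9% of all). They did not overlap for 5 genes on acetate against glucose (32.1% of all) and for 4 on ethanol against glucose (26.4% of all). The counts were 4 for maltose against glucose (13.9% of all) and 2 for ethanol against acetate, HSP30 and HSP78 (10.5% of all).

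**Figure D3:**
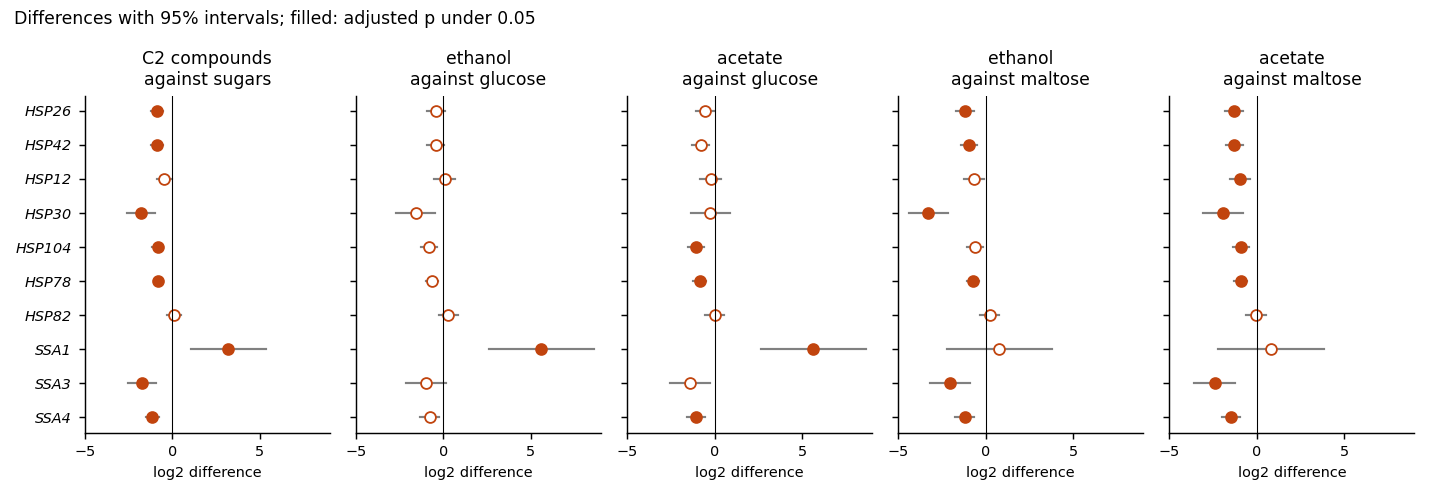
Log2 difference of each heat shock gene in the C2 contrast and in ethanol and acetate against each sugar, with 95% intervals from the limma model. Filled points passed an adjusted p of 0.05. Filled points on the lower side gather in the C2 contrast (7 genes), in acetate against maltose (8 genes) and in ethanol against maltose (6 genes).

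By the means of the 4 sources, maltose was highest for 7 of the 10 genes, and acetate was lowest for 7: HSP26, HSP42, HSP12, HSP104, HSP78, SSA3 and SSA4. The shares of all probe sets highest on maltose or lowest on acetate were not computed, so this order is not shown to be particular to these genes. The exceptions at the top were HSP104 (glucose), HSP82 (ethanol) and SSA1 (acetate), and at the bottom HSP30 (ethanol), HSP82 and SSA1 (glucose). Neighbours in this order were seldom separated: no gene passed between ethanol and acetate or between glucose and maltose. A moderated F test over all 4 sources called 8 of the 10 genes, against 8.19% of all probe sets, with adjusted p from 0.00291 for SSA4 to 0.0386 for SSA1; HSP12 (0.115) and HSP82 (0.775) did not pass.

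Of the genes, 8 also varied together over the 12 arrays. Over the 12 arrays, the 28 pairs among the 8 genes other than HSP82 and SSA1 had Pearson correlations of log2 signals between 0.49 and 0.90, with a median of 0.74; HSP42 and SSA4 were the closest pair. HSP82 correlated with these 8 genes between -0.33 and -0.06, and SSA1 between -0.46 and 0.20. With the mean of each source subtracted, the 28 pairs ranged from -0.26 to 0.89 with a median of 0.40. In the same way SSA1 correlated with the 8 genes between -0.08 and 0.86, with a median of 0.31. HSP82 did so between -0.60 and 0.06, with a median of -0.20. These are descriptions: the genes share the 12 arrays, their scaling and their RNA quality. The 8 genes are those with a negative C2 difference in these same data, which by itself raises their correlations over the 12 arrays. Correlations among all probe sets were not computed.

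Among all tested single-gene probe sets, the ones whose log2 signals followed 3 of the heat shock genes most closely over the 12 arrays were as follows. HSP26 was followed by the glycolytic enolase gene ENO1 (r = 0.93), TMA10 (0.93) and the nicotinamidase gene PNC1 (0.92). HSP104 was followed by YGR161W-C (0.94 and, on a further probe set, 0.91) and by the hexokinase gene HXK1 (0.93). SSA4 was followed by the stress gene DDR48 (0.94), the glyceraldehyde phosphate dehydrogenase gene TDH1 (0.94) and the desiccation gene SIP18 (0.93). Differences of these probe sets between the C2 compounds and the sugars ran from -0.63 ± 0.12 for YGR161W-C to -2.52 ± 0.18 for HXK1. The further probe set of YGR161W-C was at -1.20 ± 0.19, and HSP104 itself was at -0.84. The 2 probe sets of DDR48 disagreed: the set close to SSA4 was at -0.94 ± 0.14 (limma adjusted p 0.000396) and the other at 0.39 ± 0.16 (adjusted p 0.104).

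Other chaperone genes were read against the same background, 17.1% of all probe sets called in the C2 contrast and 5.69% called lower. Of the other Hsp70 and Hsp110 genes, 2 of 9 tested were called, both lower: SSE2, the stress-inducible Hsp110 exchange factor (-1.02 ± 0.16, limma adjusted p 0.000697), and KAR2, the Hsp70 of the endoplasmic reticulum (-0.64 ± 0.13, adjusted p 0.00385). SSE2 read 291, 405 and 376 on glucose, 372, 568.5 and 479 on maltose, 241, 243 and 192 on ethanol and 243, 162 and 149 on acetate. Its constitutive partner SSE1 was at -0.14 ± 0.12 (adjusted p 0.464), and whether SSE1 and SSE2 differ was not tested. SSB1 and SSB2 had no tested probe set of their own.

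Of the J proteins and exchange factors that drive the Hsp70 cycle, 2 of 15 were called lower: YDJ1, the main cytosolic J protein (-0.94 ± 0.23, limma adjusted p 0.0115), and HLJ1, a J protein of the endoplasmic reticulum membrane (-0.96 ± 0.25, adjusted p 0.0152). YDJ1 split with the 3′/5′ ratio: array 1 of ethanol and of acetate read 1395.5 and 1304.5, within the range of glucose (1268 to 1411.5), and arrays 2 and 3 read from 527 to 757. Of the Hsp90 partners, 1 of 12 was called, SBA1, the p23 cochaperone (-0.88 ± 0.14, adjusted p 5e-04). Of the chaperonin genes, 1 of 10 was called, CCT6, a subunit of the cytosolic ring (-0.92 ± 0.20, adjusted p 0.00615), while the other 7 ring subunits did not pass. HSP31, a methylglyoxal-detoxifying stress protein, was lower by 0.98 ± 0.18 (adjusted p 0.00186) and HSP150, a secreted wall protein, by 0.69 ± 0.17 (adjusted p 0.0126), the 2 tested genes of that list of 5.

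The medians of the log2 C2 difference were -0.14 for the Hsp70 and Hsp110 list, 0.11 for the J proteins, -0.01 for the Hsp90 partners and 0.02 for the chaperonins, beside 0.12 for all probe sets. The HSP31 and HSP150 pair had a median of -0.84. With the 3′/5′ covariate none of these 5 lists kept a call, where 2.05% of all probe sets were called.

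Among the regulators, 2 of 12 tested genes were called lower, against 5.69% of all probe sets: MSN2 (-0.68 ± 0.19, limma adjusted p 0.0262) and BCY1, the inhibitory subunit of protein kinase A (-0.66 ± 0.20, adjusted p 0.0319). MSN2 read between 109 and 140.4 on the sugar arrays and between 59.5 and 104 on the C2 arrays, without overlap. MSN4 was at -0.52 ± 0.29 (adjusted p 0.226) and HSF1, the heat shock factor gene itself, at 0.18 ± 0.21 (adjusted p 0.58). The median of the list was -0.18. Neither call was kept with the 3′/5′ covariate or without glucose arrays 1 and 3.

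General stress genes, many of them known Msn2 and Msn4 targets, had 9 of 14 called lower, against 5.69% of all probe sets, and 1 higher, against 11.4%, with a median of -1.17. The genes of this list that were not called were CTT1, DDR2, UBI4 and DDR48, the last on its brighter probe set. The log2 differences were -2.55 ± 0.16 (limma adjusted p 4.27e-08) for SPI1, a wall protein gene, -2.63 ± 0.39 (adjusted p 0.00038) for GRE1, a hydrophilin gene, and -2.36 ± 0.18 (adjusted p 3.47e-07) for SIP18. SPI1 read between 263.5 and 555.5 on the sugar arrays and between 51.8 and 86.5 on the C2 arrays, and GRE1 between 307 and 3321 against 141 and 482, where glucose array 1 was the low sugar array. HOR7 was the gene called higher (1.17 ± 0.35, adjusted p 0.0318); its glucose arrays read 1085, 4747 and 863, the same gap between glucose array 2 and the other two as in SSA1, and it was not called without glucose arrays 1 and 3. With the 3′/5′ covariate 6 of the 14 were called, all lower, against 2.05% of all probe sets in either direction.

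**Figure D4:**
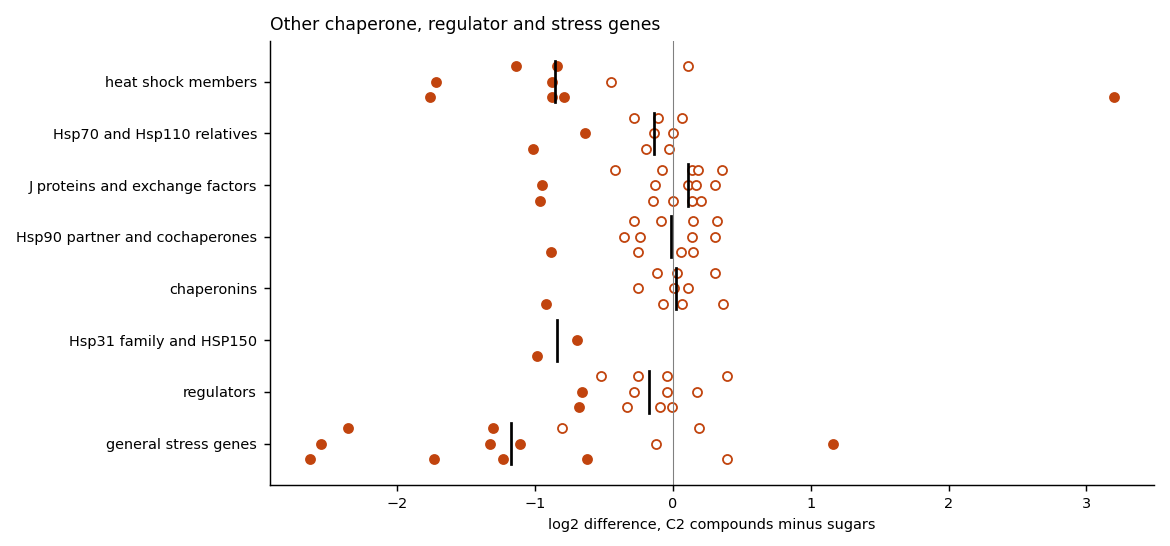
Log2 difference between the C2 compounds and the sugars for the tested genes of each other list, 1 point per gene, filled where limma's adjusted p was under 0.05; the black bar is the median of the list. The medians of the general stress genes (-1.17) and of the HSP31 and HSP150 pair (-0.84) lie far to the left, and those of the other 5 lists between -0.18 and 0.11.

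**Figure D5:**
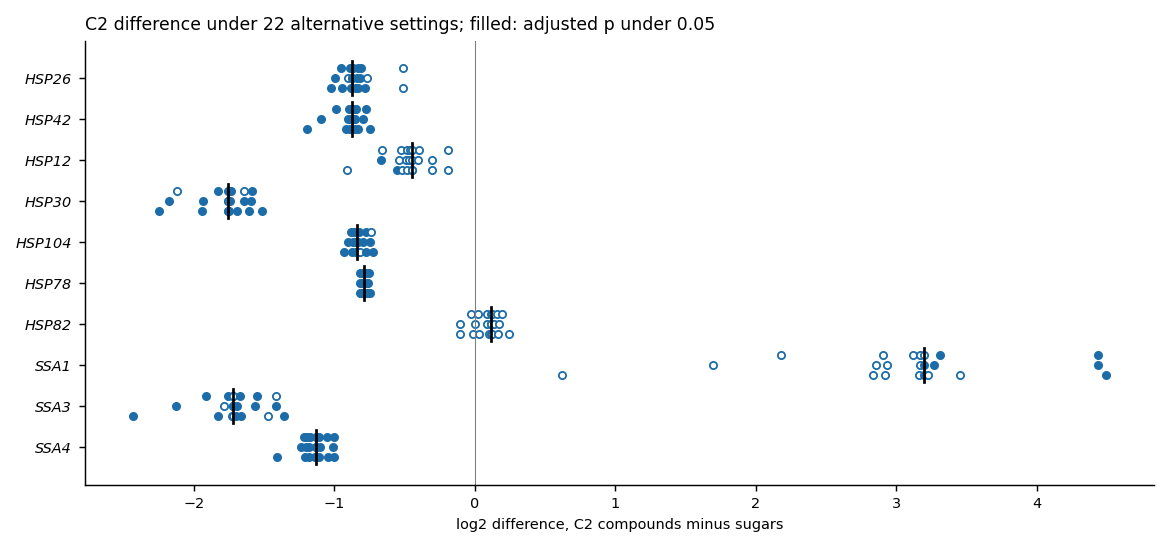
Log2 difference between the C2 compounds and the sugars for each heat shock gene under 22 alternatives (points) and as reported (black bars). HSP42, HSP78 and SSA4 keep their direction and their call throughout, and SSA1 runs from 0.62 to 4.49.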

How the data were processed

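The authors deposited linear probe set intensities (signals), 1 column per array. The submitters' processing notes name MAS5 for the 9 arrays other than glucose; its version, and the software for glucose, are not given in the sources used here. All columns already shared a 2% trimmed mean. Groups and replicate numbers came from the sample labels; nothing says whether numbered samples are separate cultures, so p-values measure only the spread between them.

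After 60 controls were left out, the arrays were set to 1 common trimmed mean, a floor of 12 was applied, and log2 was taken. A probe set entered the test if it exceeded 12 on 3 or more of 12 arrays. The test used limma 3.58.1 in R 4.3.3 (lmFit with 1 mean for each source, contrasts.fit, eBayes with a trend), with Benjamini-Hochberg adjustment over all 7176 within each of 7 contrasts and an F test; an adjusted p under 0.05 made a call. The contrasts share arrays and are not independent. The procedure was tested on simulated data.

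The genes, the 7 lists of other genes (Hsp70 and Hsp110 relatives, J proteins and exchange factors, Hsp90 partners, chaperonins, HSP31 family with HSP150, regulators, general stress genes), the tests and the alternatives were chosen with earlier results of these data known. All members were named; of each list, up to 3 called genes with the largest change in the C2 contrast were named, SSA2, HSC82, HSF1, MSN2 and MSN4 always, and, for 3 members, the 3 probe sets of highest correlation. HOR7, SSE1, CTT1, DDR2, UBI4 and the second DDR48 set were named after their values were seen. Genes known only from shared probe sets were not tested alone. Promoter motifs were not analysed here.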

Additional observations from a re-analysis of the deposited data

How the results depend on the processing

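Counts of called heat shock genes are given per comparison, in 22 alternatives of which 12 left out 1 array each. The share of all probe sets called in the same setting follows each count in parentheses, and it fell in most settings where the count fell. For the C2 compounds against the sugars, 8 as reported (17.1%), the count was 5 with a floor of 50 (8.92%), 5 with no filter (8.51%), 3 with the covariate, the 3′/5′ ratio (2.05%), 3 with only array 1 kept of ethanol and acetate (2.4%), 5 among the code letter P arrays (9.74%), and 7 to 8 with an array left out (9.82% to 21.2%). For ethanol against glucose, 1 as reported (2.55%), it was 3 with a mean signal of at least 100 (5.31%), 0 with the covariate (0.557%), 0 with only array 1 (0.766%), 2 without glucose arrays 1 and 3 (0.794%), and 0 to 2 with an array left out (1.05% to 3.39%). Where this count stayed at 1 it was not always the same gene: SSA1, higher, was kept in 5 of 22 alternatives, and HSP104 or HSP78, lower, took its place in 4. For acetate against glucose, 4 as reported (5.5%), it was 2 with a floor of 50 (2.38%), 2 with no filter (1.96%), 0 with the covariate (0.864%), 0 with only array 1 (1.02%), 1 without glucose arrays 1 and 3 (1.28%), and 1 to 5 with an array left out (1.7% to 9.39%). For ethanol against maltose, 6 as reported (6.19%), it was 3 with the covariate (2.23%), 0 with only array 1 (1.02%), 1 with a code letter block (2.23%), 0 among the P arrays (2.41%), and 3 to 6 with an array left out (2.23% to 13.8%). For acetate against maltose, 8 as reported (11.2%), it was 5 with a floor of 50 (5.48%), 5 with no filter (5.42%), 5 with the covariate (3.72%), 0 with only array 1 (1.31%), 0 with a code letter block (2.84%), 0 among the P arrays (2.72%), and 4 to 8 with an array left out (3.48% to 18.7%). For maltose against glucose, 0 as reported (0.209%), it was 1 with a code letter block (0.488%), 1 among the P arrays (0.557%), SSA1 in both, and 0 to 1 with an array left out (0.111% to 1.92%); for ethanol against acetate it was 0 throughout. The F test, 8 as reported (8.19%), gave 3 with a floor of 50 (3.85%), 2 with no filter (3.07%), 3 with the covariate (2.05%), 0 with only array 1 (1.38%), 2 with a code letter block (4.17%), 3 among the P arrays (4.38%), and 6 to 8 with an array left out (4.08% to 14.3%). No called difference changed sign in these alternatives. Settings with only array 1, or only the P arrays, rest on fewer arrays and leave lone samples whose spread is assumed to be that of the other groups. Letter M occurs only within maltose and letter V only within glucose. The code letter block therefore gave the same differences as the P arrays alone, and these 2 alternatives are not separate evidence. Other causes were not tested.

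Whether the replicate numbers pair the samples is not settled by these data. Deviations from the group means correlated between -0.21 and 0.53 in the 18 same-numbered pairs of arrays (median -0.02). In the 36 others they correlated between -0.52 and 0.31 (median -0.03). Ethanol array 1 with acetate array 1 (0.53) and ethanol array 3 with acetate array 3 (0.43) were the highest. Ethanol array 2 with acetate array 2 was at -0.08. Of the 12 arrays, 8 correlated best with their own number. With the number as a replicate block the C2 count was 8, that for acetate against glucose was 5, HSP42 being added, and the other counts were as reported. The number of arrays and the signal over background limit what can be detected.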
